A study of Mus musculus with 289 samples.

Results

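The developmental transcription factor genes examined here are 77 of the 15019 rows of a single-cell count table from mouse tail epidermis. They were taken by symbol alone, as every measured Hox gene (27 genes: 7 Hoxa, 6 Hoxb, 8 Hoxc and 6 Hoxd) and every measured member of the Sox (12), Dlx (5), Irx (5), Pax (5), Six-family (5), Tbx (5), Lhx (3), Nkx (3), Fox (3), Gata (2) and Msx (2) families, with Sox9, Gata6 and Lhx2 left out. The cells were tdTomato-positive keratinocytes sorted from unwounded skin of mice of a mixed CBA C57BL/6 background that carried Lrig1-EGFP-ires-CreERT2 and Rosa26-fl/STOP/fl-tdTomato. A topical dose of hydroxytamoxifen switched on tdTomato in cells then expressing Lrig1, a marker of the upper hair follicle, so the sorted cells are these cells and their descendants and not the whole epidermis. After labelling the tail skin received PRT4165 or its vehicle, and both groups carried the same alleles and the same label. The vehicle is acetone by the study's methods, the animals were female, and their age is not in the sample labels. Each treatment filled 2 plates of single cells (vehicle 1 and 2, PRT4165 1 and 2). A plate held 1 treatment only and the labels do not say how many mice it pooled, so the plate is the replicate, and p-values measure the spread between plates, which may be technical.

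PRT4165 inhibits the RING1 and RNF2 ubiquitin ligases, the catalytic subunits of Polycomb repressive complex 1. That complex places ubiquitin on histone H2A, while Polycomb repressive complex 2 methylates histone H3, and both marks cover the promoters of silent developmental regulators, of which the Hox clusters are the classical case. Hox genes carry a homeobox and record position along the body axes, and tail skin of the adult keeps part of this code. Sox, T-box, GATA, paired-box and forkhead factors bind DNA through other domains and specify cell types, among them several of the hair follicle, the sebaceous gland and the differentiating epidermis. The comparison addresses whether cells exposed to the inhibitor carried counts of more of these genes, or more counts of each.

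Of 289 cells, 274 passed a filter of at least 1000 genes and at most 50% mitochondrial counts, and they were spread as 70, 55, 72 and 77 cells over vehicle 1, vehicle 2, PRT4165 1 and PRT4165 2. Median estimated counts per cell were 141985, 506827, 429383 and 538754, so that vehicle 1 was the shallowest plate. Shares of cells with a count were therefore compared after drawing 50000 non-mitochondrial counts from every cell that had as many (59, 54, 61 and 72 cells), and the shares from all counts are given beside them for the genes compared between treatments. The sorted cells were keratinocytes by their markers: 237 of 274 cells had counts of at least 3 of 7 basal keratinocyte genes. At least 3 markers of fibroblasts were found in 2 cells, of melanocytes in 1 cell, of Merkel cells in 1 cell and of T cells in 2 cells, and in no cell were all 3 of the Langerhans markers analysed here. Only 2 of 5 endothelial markers could be used, too few for this criterion. No molecular identifiers were used, so intervals and detection limits cover counting error only.

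Polycomb complexes are known to gather at stretches rich in the dinucleotide CG. Promoter sequence from RefSeq (GRCm38.p6; 250 bases before and 50 after the first listed start of a gene) was matched for 53 of the 77 genes. Of these, 29 (54.7%) were CG-rich, with a GC content of at least 55% and an observed over expected CG ratio of at least 0.65, against 51.6% of the 11718 rows with a promoter. The 4 promoters below are shown because the 3 Hoxd genes had their highest shares in the same expression cluster and Hoxa9 in another, as described further on. They are the 250 bases before the start on the transcribed strand, with every CG in capitals. A CG occurred at least once in 96.8% of such windows across the table, with a median of 14, and searching CG on the other strand finds the same positions.
Hoxd8 (chr2:74704365-74704614, + strand): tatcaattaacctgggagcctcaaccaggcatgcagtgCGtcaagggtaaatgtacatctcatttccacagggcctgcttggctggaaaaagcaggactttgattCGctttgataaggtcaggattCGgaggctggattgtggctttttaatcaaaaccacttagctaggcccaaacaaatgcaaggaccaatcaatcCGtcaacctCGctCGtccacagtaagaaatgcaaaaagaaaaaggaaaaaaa
Hoxd10 (chr2:74691641-74691890, + strand): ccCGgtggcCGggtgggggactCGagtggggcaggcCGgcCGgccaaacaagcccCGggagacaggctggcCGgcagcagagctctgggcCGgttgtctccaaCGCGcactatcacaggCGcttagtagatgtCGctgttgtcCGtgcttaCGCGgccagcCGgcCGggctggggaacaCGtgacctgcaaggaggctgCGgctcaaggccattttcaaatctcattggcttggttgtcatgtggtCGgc
Hoxd11 (chr2:74679308-74679557, + strand): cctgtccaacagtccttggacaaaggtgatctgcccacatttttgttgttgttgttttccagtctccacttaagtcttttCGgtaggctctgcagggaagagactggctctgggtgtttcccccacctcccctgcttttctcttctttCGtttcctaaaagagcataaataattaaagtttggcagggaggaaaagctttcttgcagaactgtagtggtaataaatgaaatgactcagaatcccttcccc
Hoxa9 (chr6:52227371-52227620, - strand): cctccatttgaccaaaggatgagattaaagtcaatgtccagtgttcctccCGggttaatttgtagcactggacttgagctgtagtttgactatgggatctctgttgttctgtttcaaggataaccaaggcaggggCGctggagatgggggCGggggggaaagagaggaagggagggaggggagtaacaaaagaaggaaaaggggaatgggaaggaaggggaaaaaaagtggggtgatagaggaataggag
Hoxd10 held 20 CG in this window, Hoxd8 held 6, Hoxa9 held 3 and Hoxd11 held 2, so the windows of neighbouring Hoxd genes differed widely in CG. Each window depends on which start was listed first, and windows at other starts were not compared. The listed Hoxd10 start lies upstream of the annotated gene (chr2:74691924-74695105, GENCODE M21). The Hoxa9 window lies inside the annotated gene (chr6:52223100-52231089, GENCODE M21), which has another start further upstream.

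Most of the 77 genes were found in few cells. All but 1 (Lhx4) had a count in a cell that passed the filter, and 51 had a count on all 4 plates. Averaged over plates, 19 genes had a count in at least 20% of cells, 27 in 5 to 20% and 31 in under 5%. The median gene was found in 7.76% of cells, against 15.1% for all 15006 genes of the table that are not mitochondrial. For 19 genes a single cell held at least 50% of all counts.

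**Figure D1:**
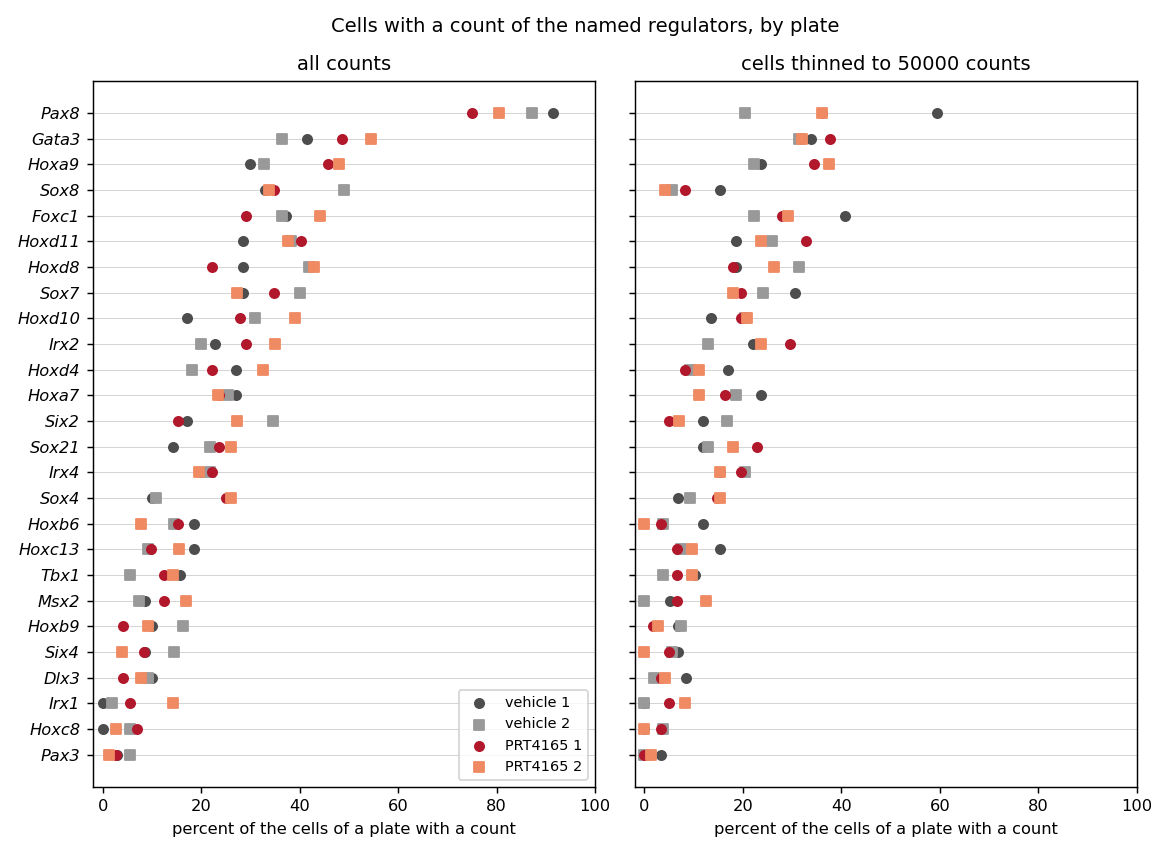
Percent of the cells of each plate with a count (x axis) for the named regulators (y axis) that averaged at least 2% of cells, from all counts (left) and after thinning every cell to 50000 counts (right). Each point is 1 plate, and Hoxa9 and Sox4 are among the genes whose treatments do not overlap in either panel.

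The genes found in the most cells differed in their counts per cell. Among the 12 found in most cells, the median count where present ran from 1 (Sox8) to 17.5 (Sox7), with the others spread between. Gata3, a GATA factor of the inner root sheath and of differentiating epidermis, was found in 41.4%, 36.4%, 48.6% and 54.5% of cells (vehicle 1, vehicle 2, PRT4165 1, PRT4165 2), with a median of 9.50 counts where it was present. Foxc1, a forkhead factor active in hair follicle stem cells and sebaceous glands, was found in 37.1%, 36.4%, 29.2% and 44.2% of cells with a median of 14 counts. Sox7, an SRY-box factor best known from endothelium, had a median of 17.5 counts and Irx2, an Iroquois homeobox factor, a median of 11. Averaged over plates each of these 4 genes was missing from most cells but had many counts in some, and the highest single cell held 379 counts of Gata3, 892 of Foxc1, 818 of Sox7 and 1367 of Irx2.

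Pax8, a paired-box factor of thyroid and kidney, was found in more cells than any other of the 77, in 91.4%, 87.3%, 75.0% and 80.5% of the cells of the 4 plates. Its median was 4.28 counts and no cell held more than 20.9. When the cells of each plate were divided at the median depth, the deeper cells had 3.82 times the counts of the shallower ones, but the mean Pax8 count was 4.11 against 3.81, a ratio of 1.08. For Foxc1 the same ratio was 6.51, for Hoxa9 7.996 and for Hoxd8 4.02. Sox8, a gene of the neural crest and testis, resembled Pax8 in its few counts and low ratio. It had a count in 32.9%, 49.1%, 34.7% and 33.8% of cells, a median of 1 count and a ratio of 1.74. A low ratio was not limited to genes with few counts, and so does not set Pax8 and Sox8 apart. It was 1.31 for Hoxd11 (median of 7 counts), 1.52 for Sox4 and 2.17 for Irx4 (median of 18 counts). After thinning the Pax8 shares were 59.3%, 20.4%, 36.1% and 36.1%, with the highest on the shallowest plate. Exons of Pax8 overlap Gm13415 and exons of Sox8 overlap 2810468N07Rik, each on the other strand and over a small part of the exon length. Without strand in the reads, counts from these stretches cannot be assigned to 1 gene. Counts from the rest of Pax8 and Sox8 are not affected by these overlaps.

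The Hox genes showed an order along their clusters. Levels were compared as counts scaled to an equal non-mitochondrial total per plate (CPM) and divided by kilobases of exon, averaged over the 4 plates. In Hoxd, on chromosome 2, the level was 0.15 for Hoxd3 and 0.90 for Hoxd4, then 7.99 for Hoxd8, 1.504 for Hoxd9, 21.8 for Hoxd10 and 5.42 for Hoxd11. In Hoxa, on chromosome 6, Hoxa3 and Hoxa6 were at 0.12 and 0.08, and Hoxa7, Hoxa9 and Hoxa10 at 6.36, 11.5 and 3.49. In both clusters every measured gene from paralogue 7 on, which pattern the more posterior body, had a higher mean level than those below it, although the plates of Hoxd9 (1.27, 0.87, 2.14 and 1.74) overlapped those of Hoxd4 (0.88 to 0.92). Hoxa4 and Hoxa5 averaged 2.68 and 1.92 and reached 7.79 and 7.69 on PRT4165 1, above Hoxa7 there, but single cells decided both: 1 cell held 57.8% of all Hoxa4 counts and 1 cell 97.4% of all Hoxa5 counts.

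**Figure D2:**
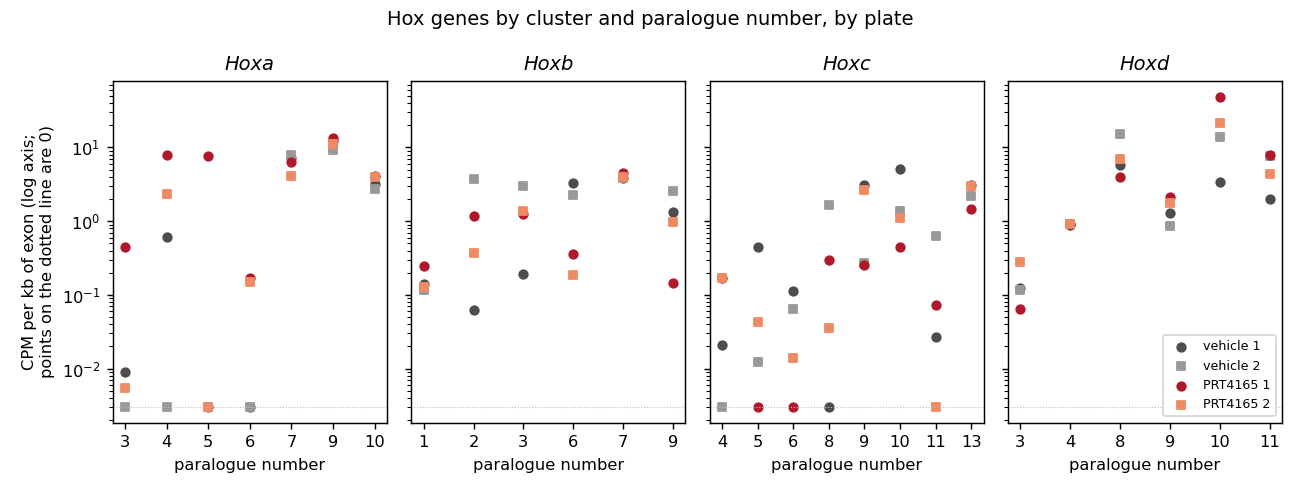
Level of each measured Hox gene in CPM per kilobase of exon (y axis, log scale; points on the dotted line are 0) by paralogue number (x axis) in the 4 Hox clusters. Each point is 1 plate. Hoxa7, Hoxa9 and Hoxa10 and Hoxd8 to Hoxd11 had counts on all 4 plates, while Hoxa3, Hoxa4, Hoxa5, Hoxa6 and several Hoxc genes were at 0 on some.

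The Hoxb and Hoxc clusters were lower and more scattered. Hoxb7 led its cluster at 3.88, 3.79, 4.48 and 3.995 CPM per kilobase. Hoxc13, a factor required for hair shaft keratins, had the highest mean of Hoxc at 3.05, 2.17, 1.48 and 3.03, below Hoxc10 (5.02) and Hoxc9 (3.07) on vehicle 1, and Hoxc8 was at 0, 1.64, 0.30 and 0.04. Sequence shared with other genes makes 7 of the 77 uncertain, with over 20% of their 31-base words also found in another gene: Hoxd3 (60.2%), Sox4 (54.3%), Hoxb3 (52.7%), Hoxd4 (47.8%), Hoxb2 (26.5%), Hoxa3 (25.9%) and Hoxa7 (20.5%).

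The number of the 77 genes with a count per cell overlapped between PRT4165 and vehicle. The median number per thinned cell was 6, 5, 5 and 5 in the order vehicle 1, vehicle 2, PRT4165 1 and PRT4165 2, and the means were 5.93, 4.72, 5.62 and 5.35. Over plates the mean was 5.33 ± 0.86 (SD, n = 2) in vehicle and 5.49 ± 0.19 (SD, n = 2) in PRT4165, and the vehicle plates enclosed both PRT4165 plates. The difference in means was -0.31 within the first batch and 0.63 within the second, so it had opposite signs. With 2 plates against 2, the smallest p that an exact two-sided permutation test can give is 0.333.

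**Figure D3:**
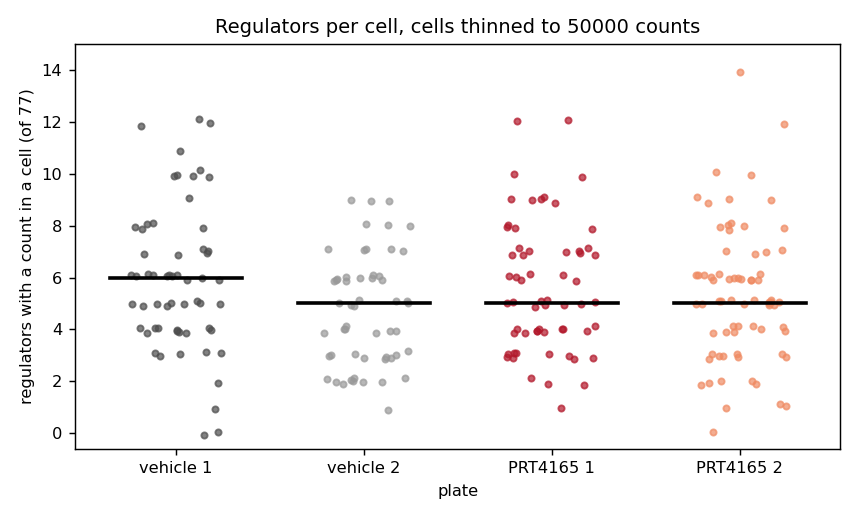
Number of the 77 genes with a count (y axis) in each cell thinned to 50000 counts, by plate (x axis). Each point is 1 cell, moved slightly to separate ties, and the black lines are the medians of 6, 5, 5 and 5.

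From all counts the medians were 8.5 and 9 in vehicle and 9 and 10 in PRT4165, while the median number of all genes with a count was 3071.5 and 3339 against 3600.5 and 3890. As a percent of the genes found in a cell, the 77 genes made up a median of 0.206% and 0.179% in vehicle and 0.187% and 0.192% in PRT4165 after thinning. Their summed level was 709 and 552 CPM in vehicle and 743 and 504 CPM in PRT4165, or 631 ± 111.1 against 624 ± 168.7 (SD, n = 2 each). Foxc1, Irx2, Hoxa9, Sox7 and Hoxd10 together held 48.1% of the counts. The groups overlapped in all 3 of these measures.

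Gene by gene, the share of thinned cells with a count was tested for 49 of the 77 (those with a count in at least 5 thinned cells) with limma on the arcsine-transformed share, in a fit over 12176 genes. None of the 49 passed an adjusted p of 0.05, nor did any other gene (0% of the table). At an unadjusted p under 0.05 there were 5 of the 49, against 6.18% of all genes tested. Irx1, Tbx3, Msx2 and Hoxa9 were higher in PRT4165 (4.84% of all genes) and Six3 lower (1.34% of all genes). In direction, 26 of the 49 (53.1%) were higher in PRT4165, against 60.6% of all genes tested. The plates of the treatments did not overlap for 13 genes in the higher and 8 in the lower direction, together 42.9% of the 49, against 24.6%, 11.8% and together 36.4% of all genes tested.

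Hoxa9 had the largest difference in share of cells with at least 1 count. It was found in 23.7% and 22.2% of thinned vehicle cells and in 34.4% and 37.5% of thinned PRT4165 cells, a mean of 22.98% ± 1.07 against 35.96% ± 2.17 (SD, n = 2 each). Both PRT4165 plates lay above both vehicle plates, from all counts as well (30%, 32.7%, 45.8% and 48.1%), but the adjusted p in limma was 0.778. When at least 10 counts were required of a thinned cell the difference was -1.40 percentage points in place of 12.99. Its level per plate overlapped between the groups, at 69.0 and 51.1 CPM in vehicle and 73.96 and 62.9 CPM in PRT4165. Hoxa9 is a homeobox factor of the posterior trunk and limb that is also a classical Polycomb target.

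Sox4, an SRY-box factor of epithelial and hair follicle progenitors, was found in 6.78% and 9.26% of thinned vehicle cells and in 14.8% and 15.3% of thinned PRT4165 cells, and from all counts in 10%, 10.9%, 25% and 25.97%. Its level was 2.56 and 4.23 CPM in vehicle and 13.3 and 17.1 CPM in PRT4165, with no overlap, and the fitted log2 difference in edgeR was 2.20 with a standard error of 0.97 (unadjusted p = 0.0522, adjusted p = 0.997). With no filter on cells it was 1.10. Exons of Sox4 overlap Gm26735 on the other strand over 2616 of 4795 bases, and counts from that stretch cannot be assigned to 1 gene here. Irx2 was found in 22.03% and 12.96% of vehicle and 29.5% and 23.6% of PRT4165 cells, and Sox21, a repressor active in the hair cuticle, in 11.9% and 12.96% against 22.95% and 18.1%. From all counts the shares were 22.9%, 20%, 29.2% and 35.1% for Irx2 and 14.3%, 21.8%, 23.6% and 25.97% for Sox21. The plates did not overlap for either gene in share, and overlapped for both in level. When at least 10 counts were required, the difference in share of Irx2 was -1.91 points in place of 9.06.

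Irx1, an Iroquois homeobox factor, was rare. It had no count in 59 and 54 thinned vehicle cells, which allows a share of up to 5.08% and 5.56%, and was found in 4.92% and 8.33% of PRT4165 cells. From all counts it was found in 0, 1, 4 and 11 cells, and 1 PRT4165 cell held 59.1% of all its counts. Msx2, a homeobox factor of the hair matrix, was found in 5.08% and 0% of vehicle and 6.56% and 12.5% of PRT4165 cells, at 1.74, 0.27, 4.05 and 6.24 CPM, and from all counts in 8.57%, 7.27%, 12.5% and 16.9%. Tbx3, a T-box repressor, was found in 0% and 0% against 1.64% and 9.72%, and in 1.43%, 1.82%, 2.78% and 14.3% from all counts. The same limits of 5.08% and 5.56% hold for its shares of 0 and, on vehicle 2, for that of Msx2. These differences rest on few cells, and the limma adjusted p was 0.778 for each of the 3.

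In the other direction, Sox7 was found in 30.5% and 24.1% of thinned vehicle cells and in 19.7% and 18.1% of thinned PRT4165 cells, and its level was 108.3 and 47.2 CPM against 37.8 and 28.3 CPM. Six2, a homeobox factor of the kidney and skull, was found in 11.9% and 16.7% against 4.92% and 6.94%, at 10.1 and 5.75 CPM against 2.23 and 1.85 CPM. Hoxa7 was found in 23.7% and 18.5% against 16.4% and 11.1%. Hoxb6 was found in 11.9% and 3.70% against 3.28% and 0% (up to 4.17%), and Hoxb9 in 6.78% and 7.41% against 1.64% and 2.78%. The plates did not overlap for any of these 5 genes in the thinned share. From all counts Hoxa7 (27.1%, 25.5%, 23.6% and 23.4%) and Hoxb9 (10%, 16.4%, 4.17% and 9.09%) did not overlap either. The shares from all counts of Sox7 (28.6%, 40%, 34.7% and 27.3%), Six2 (17.1%, 34.5%, 15.3% and 27.3%) and Hoxb6 (18.6%, 14.5%, 15.3% and 7.79%) did overlap.

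The summed counts per plate were tested with edgeR for 54 of the 77 genes, in a fit over 12791 genes with a low-count filter. None was called at an adjusted p of 0.05, as for the table as a whole (0% of 12791). At an unadjusted p under 0.05 there were 3 of the 54 (2 higher and 1 lower), against 4.93% of all genes tested (2.79% higher and 2.13% lower). DESeq2 called 1.36% of the genes of the table and none of the 54, of which 6 had an unadjusted p under 0.05, against 8.21% of all genes. Of the 54, 28 had a log2 fold change above 0 and 26 below, a share of 51.9% higher against 49.4% of all genes, and the median was 0.07 against -0.02. The plates did not overlap in CPM for 27 of the 54 (14 higher and 13 lower, 50%), against 32% of all genes tested (16.3% higher and 15.7% lower).

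**Figure D4:**
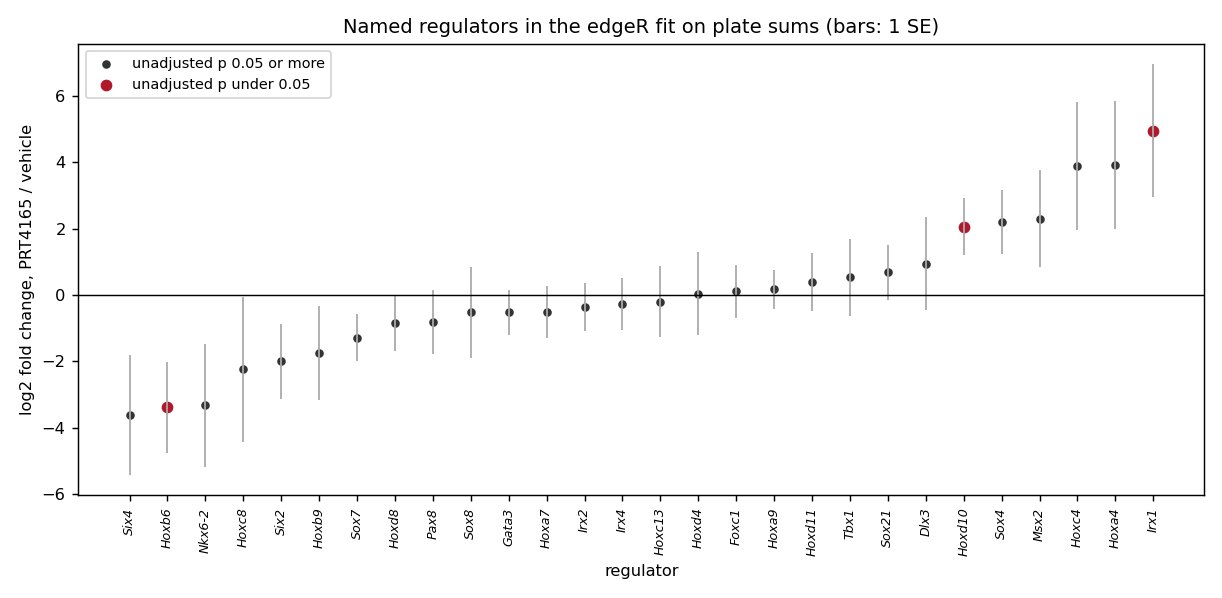
Log2 fold change of PRT4165 over vehicle (y axis) with 1 standard error for the 28 of the 54 genes in the edgeR fit that were named by rule (x axis, in order of the estimate), from 2 plates of each treatment. The estimates run from -3.62 (Six4) to 4.95 (Irx1), and the 3 red points have an unadjusted p under 0.05 and none an adjusted one.

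The 3 genes were Irx1, Hoxd10 and Hoxb6. Irx1 had 0 and 0.15 CPM in vehicle and 0.88 and 4.01 CPM in PRT4165, and edgeR fitted a log2 difference of 4.95 with a standard error of 1.99 (unadjusted p = 0.0373, adjusted p = 0.988), which at so few vehicle counts depends on the prior count. The estimate was 8.98 without vehicle 2, 3.38 without PRT4165 2 and 1.62 with every cell given the same weight. Hoxd10 had 6.10 and 25.2 CPM in vehicle and 88.8 and 38.6 CPM in PRT4165, and edgeR fitted a log2 difference of 2.06 with a standard error of 0.86 (unadjusted p = 0.0426, adjusted p = 0.997). One PRT4165 cell gave 1793 of the 2410 Hoxd10 counts of its plate, and with every cell given the same weight the log2 difference was -0.06. It was 1.43 without vehicle 1 and 3.25 without vehicle 2. The share of thinned cells with Hoxd10 was 13.6% and 20.4% in vehicle and 19.7% and 20.8% in PRT4165, which overlap, as do the shares from all counts (17.1%, 30.9%, 27.8% and 38.96%). Hoxb6 had 6.43 and 4.49 CPM in vehicle and 0.70 and 0.37 CPM in PRT4165, and edgeR fitted a log2 difference of -3.39 with a standard error of 1.37 (unadjusted p = 0.0374, adjusted p = 0.988). A single cell gave 52.5% and 81.5% of the counts of the vehicle plates.

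Of the other genes named for a low p in edgeR, several rested on few cells or largely on 1. Sox4, described above, had the lowest p of these in edgeR (unadjusted p = 0.0522) and a count in 51 cells. Hoxa4 had 0.98 and 0 CPM in vehicle and 12.4 and 3.71 CPM in PRT4165, from 5 cells in all. Hoxc4 had 1, 0, 12 and 13 counts, also from 5 cells, and Nkx6-2, a homeobox factor of the nervous system, had 11, 14, 3 and 0 counts from 4 cells. Six4 had 6.92, 0.46, 0.48 and 0.17 CPM, and 1 vehicle cell gave 95.3% of the counts of its plate. Without the first vehicle plate its log2 fold change of -3.62 was -0.43.

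By family, the Six-family genes stood on 1 side in plate sums, with 5 of 5 below 0 and a median log2 fold change of -1.97. Their unadjusted p values in edgeR ran from 0.0782 to 0.469. These sums rest in part on few cells: Six6 had a count in 4 cells and Six5 in 9, and a single cell gave most Six4 counts of vehicle 1. In thinned share 1 of the 4 tested was higher in PRT4165, Six5 with 1.69% and 1.85% of vehicle cells against 3.28% and 2.78%. The direction of the Six-family plate sums held under the other scalings and filters and without any 1 plate. With every cell given the same weight 1 of the 5 was above 0 and the median was -0.55. Of the Hoxd genes 5 of 6 were above 0, with a median of 0.46, and this turned to 2 of 6 and -0.20 when every cell had the same weight. Of the Hoxb genes 1 of 5 was above 0, with a median of -1.23, and the median was 0.15 with the batch as a block and 0.14 without the second vehicle plate. Sox genes were split 6 above to 3 below, and the Hox genes as a whole 10 to 10 with a median of -0.08.

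Several regulators with known parts in skin overlapped between the treatments in thinned share or were rare. Gata3 was found in 33.9% and 31.5% of thinned vehicle cells and 37.7% and 31.9% of thinned PRT4165 cells, while its shares from all counts, given above, did not overlap. Irx4 was found in 15.3% and 20.4% against 19.7% and 15.3%, and Hoxd8 in 18.6% and 31.5% against 18.0% and 26.4%. Foxc1 spread more between plates of 1 treatment (102 and 40.8 CPM in vehicle, 132.3 and 31.5 CPM in PRT4165) than between treatments. Dlx3, a homeobox factor of hair and epidermal differentiation, was found in 8.47% and 1.85% against 3.28% and 4.17%, Hoxc13 in 15.3% and 7.41% against 6.56% and 9.72%, and Tbx1, a T-box factor of hair follicle stem cells, in 10.2% and 3.70% against 6.56% and 9.72%. From all counts the shares of Irx4 (20%, 21.8%, 22.2% and 19.5%), Hoxd8 (28.6%, 41.8%, 22.2% and 42.9%), Hoxc13 (18.6%, 9.09%, 9.72% and 15.6%) and Tbx1 (15.7%, 5.45%, 12.5% and 14.3%) overlapped as well, and those of Dlx3 (10%, 9.09%, 4.17% and 7.79%) did not. Msx1 had 1, 0, 10 and 17 counts, each plate's from 1 cell at most, and Pax3, a melanocyte factor, had 2, 47, 4 and 8 counts in 8 cells.

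Sox2, which in the epidermis marks Merkel cells, was found in 1 cell only, of vehicle 2, with 427 counts. That cell was also the highest of all 274 for Krt8 (244 counts), Krt18 (82) and Krt20 (99), the simple-epithelial keratins of Merkel cells, and the only one with a count of Krt20. It had no count of Krt5, Krt14, Krt15, Col17a1 or Trp63, of which Krt14 was found in 255 cells. One tdTomato-positive Merkel-like cell thus accounted for every Sox2 count in the table.

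The genes were distributed unevenly over expression clusters. The 274 cells were grouped into 9 clusters (A to I) by their other genes, with the 77 genes and the mitochondrial genes left out, and the shares below are a description over thinned cells of all plates, with no test. Cluster C (38 cells) was named bulge-like, with Cd34 among its leading genes and Lgr5, Krt15, Postn, Ccn2 and Lhx2 raised. The bulge markers Sox9 and Fgf18 were not raised there, and Krt15 and Postn also served as basal and upper follicle markers. Cluster C held Hoxd11 in 58.1%, Hoxd8 in 51.6% and Hoxd10 in 48.4% of its cells. These genes were not particular to it: cluster E held Hoxd11 in 52.2%, and cluster G held Hoxd10 in 45.8% and Hoxd8 in 33.3%. Cluster C held Hoxa9 in 3.23% and Sox7 and Sox21 in none of its 31 thinned cells, which allows a share of up to 9.68%. Hoxa9 was found most in cluster H (24 cells, sebaceous gland-like, with Scd1, Fasn and Pparg raised), in 73.9% of cells, and in 41.03% of cluster B (39 cells, differentiated interfollicular-like, led by Krt2 and Krt1), while Sox7 was in none of the 23 thinned cells of cluster H.

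**Figure D5:**
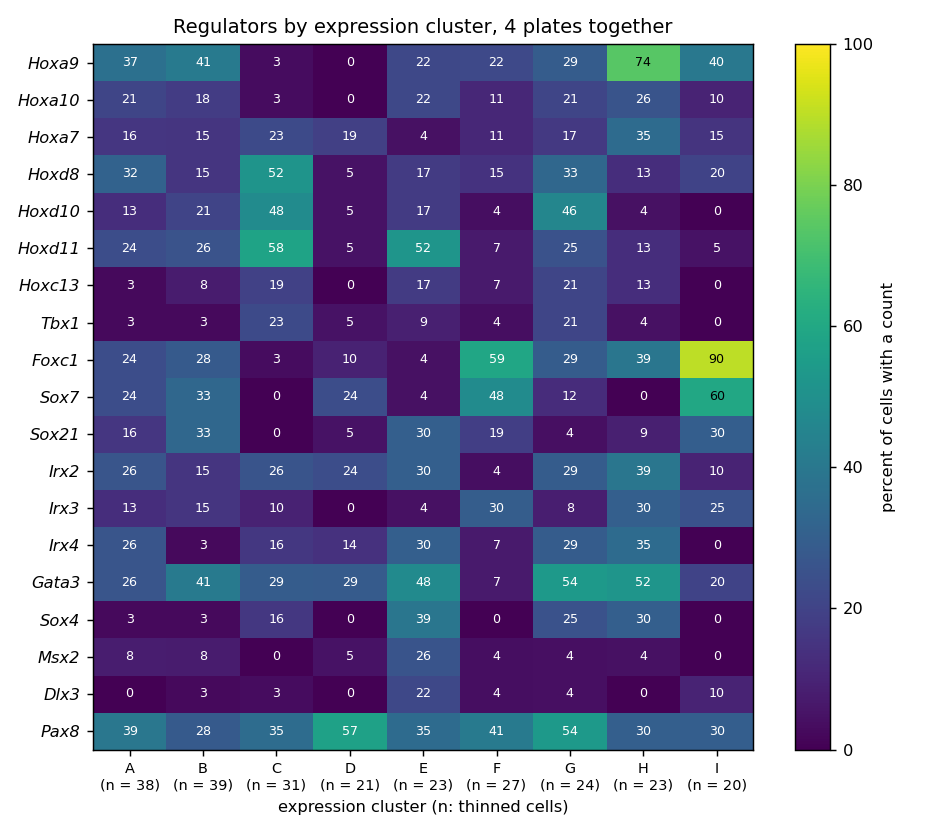
Percent of the thinned cells of each expression cluster (columns, with the number of cells) that held a count of each of 19 regulators (rows), all plates together. Hoxd8, Hoxd10 and Hoxd11 were highest or near highest in cluster C, Hoxa9 in cluster H, and Foxc1 and Sox7 in clusters F and I.

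Foxc1 and Sox7 both had their highest shares in clusters I and F. Cluster I (20 cells, led by Klk10 with Asprv1, Crct1 and Cdsn, genes of the outermost epidermis, and with Krt79 and Krt17 raised) held Foxc1 in 90% and Sox7 in 60% of its cells, and cluster F (27 cells, with Krt79 among its leading genes) held them in 59.3% and 48.1%. Cluster E (27 cells, unnamed, led by the mitotic genes Cenpe and Hmmr and the hair keratin gene Krt35) held Sox4 in 39.1%, Msx2 in 26.1% and Dlx3 in 21.7%, the highest shares of each. Gata3 was found in 54.2% of cluster G (25 cells, unnamed, led by Aspn), in 52.2% of cluster H and in 47.8% of cluster E. Its lowest share was 7.41%, in cluster F. Pax8 was found in every cluster, from 28.2% (B) to 57.1% (D), and cluster D was the shallowest with a median of 91054 counts.

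The make-up of the plates by cluster varied as well. Cluster C took 17.1% and 23.6% of the vehicle cells and 5.56% and 11.7% of the PRT4165 cells, cluster E took 5.71% and 5.45% against 18.1% and 9.09%, cluster H took 2.86% and 5.45% against 6.94% and 18.2%, and cluster I took 10% and 10.9% against 5.56% and 3.90%. Fewer cells of a type and fewer counts per cell cannot be told apart in a plate sum. The part of this make-up in the differences above was not tested. As a description, shares of some genes were taken again without the 1 cluster where that gene had its highest share. That cluster was picked from the same shares. Without the cells of cluster H the Hoxa9 shares were 22.8%, 17.6%, 32.1% and 28.8%, which did not overlap, and the difference was 10.3 percentage points in place of 12.99. Clusters B (41.03%) and I (40%), which also held Hoxa9, stayed in. Without cluster E the Sox4 difference was 2.85 in place of 6.996 points, and without cluster I the Sox7 difference was -6.33 in place of -8.43 points. Without cluster C the Hoxd11 shares were 11.8% and 17.1% in vehicle and 31.03% and 20% in PRT4165, a difference of 11.1 in place of 5.91 points, and the Hoxd8 difference was 1.34 in place of -2.85 points.

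Genes of the Polycomb machinery itself were measured alongside. All 35 subunit genes listed were in the table and 33 were tested, of which edgeR called none at an adjusted p of 0.05 and 3 (Kdm2b, Scmh1 and Mtf2) had an unadjusted p under 0.05, or 9.09% against 4.93% of all genes. Ring1, a target of the inhibitor, had 0.54 and 3.31 CPM in vehicle and 1.33 and 1.99 CPM in PRT4165. Rnf2, its paralogue and the other target, had 22.3 and 56.4 CPM against 36.9 and 31.8 CPM, and edgeR fitted a log2 difference of -0.15 with a standard error of 0.72 (adjusted p = 0.997). The lowest p in each direction belonged to Kdm2b, which brings a variant complex to CG-rich DNA, at 23.1 and 6.23 CPM against 120 and 38.2 CPM (log2 fold change 2.34, SE 0.92, adjusted p = 0.988 in edgeR), and to Mtf2, an accessory subunit of complex 2, at 163.9 and 59.6 CPM against 44.4 and 28.4 CPM (log2 fold change -1.68, SE 0.72, adjusted p = 0.997 in edgeR). Of the 33, 19 were above 0 and 14 below. The histone marks themselves are not measured in these data.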

How the data were processed

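Single cells in plates were profiled with a Smart-seq2 protocol (unstranded, 75-base single reads, 25 PCR cycles). The authors deposited estimated counts per gene symbol and cell (expected counts), made with Salmon 0.13.1 against the Ensembl 101 mouse transcriptome per the study's methods; the labels name the builds mm10 and GRCm38. Of the deposited values above 0, 18.3% were not whole, and counts were rounded before tests.

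Cells were kept with at least 1000 genes and at most 50% mitochondrial counts. Plate sums were tested with edgeR 4.0.16 (quasi-likelihood, TMM, filterByExpr) in R 4.3.3, and shares of cells with a count, after thinning to 50000 non-mitochondrial counts, with limma 3.58.1 on arcsine-square-root shares of genes present in at least 5 thinned cells. Adjusted p values are Benjamini-Hochberg over all genes tested. CPM are scaled to the non-mitochondrial total. DESeq2 1.42.0 was an alternative. Clusters were made with leidenalg 0.10.2 from 2000 variable genes and 15 components. Doublets were not called, because cells were sorted singly into wells. The 2 tests were run on simulated data with large changes only, which does not show their power for smaller differences.

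The labels' batch tag, Replicate1 or Replicate2, pairs 1 vehicle plate with 1 PRT4165 plate. The deviations of same-numbered plates correlated at 0.0206 across 12791 genes, and the batch enters as a block in an alternative. The treatment code in the labels also carries PR9 or PR12, which differs with treatment, is not explained and cannot be told apart from it.

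The genes, lists and clusters were chosen with earlier results of these data known. Genes were named by rule: the 12 found in most cells, the 5 with the lowest p in edgeR in each direction, and the 5 with the largest rise and the 5 with the largest fall in thinned share. Added to these were 20 genes with known roles in skin or its other cell types, of which several were not analysed here. For the Polycomb genes, values are given for Ring1, Rnf2 and the gene of lowest p in each direction. Sequences and gene positions are from RefSeq (GRCm38.p6) and GENCODE M21.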

Additional observations from a re-analysis of the deposited data

How the results depend on the processing

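None of the developmental genes was called under any alternative run: another normalization, DESeq2, no low-count filter, no cell filter, equal weight per cell, thinning to 20000, no thinning, at least 10 counts, or leaving out any 1 plate (0 to 0). Over the whole table edgeR called 0% of genes, DESeq2 called 1.36%, and limma on shares with the replicate block called 1 gene (0.00821%) in place of 0. The block for the paired plates changed no other call, and left 0 developmental genes and 0 Polycomb subunit genes called. The share of tested genes above 0 was 38.9% with equal weight per cell (48.7% of all genes) and 43.1% to 56.1% without 1 plate (44.7% to 56.04% of all genes). The difference in the median number of genes per cell was -0.50, and became 0 with 20000 counts, 0 with at least 10 counts, 0.75 with no thinning, 0.16 as a mean and -1 to 0 without 1 plate. Their percent of all genes found moved between -0.017 and 0.010 points, and their summed level between -126.5 and 112.1 CPM, without 1 plate.

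Of 28 named genes with a log2 fold change, 17 kept their sign under every alternative that gave a value; Hoxc4 has none without either PRT4165 plate and Nkx6-2 none without vehicle 2. With equal weight per cell the sign turned for Foxc1 (-0.26), Hoxd10 (-0.064), Irx2 (0.20), Hoxd4 (-0.33), Dlx3 (-0.22) and Tbx1 (-0.70), and with no cell filter for Hoxc13 (0.16). Without 1 plate the estimates ran from -1.44 to 0.31 for Pax8, -0.12 to 0.53 for Hoxa9, -1.15 to 1.08 for Foxc1, -0.21 to 1.49 for Hoxd11, -1.01 to 0.88 for Irx2, -0.028 to 0.11 for Hoxd4, -1.24 to 1.78 for Dlx3, -0.90 to 0.28 for Hoxc13 and -4.30 to 6.51 for Hoxc8. The cause was not tested. Values without the cells of 1 expression cluster were chosen after seeing the data. With 2 plates a treatment, the fitted coefficient of variation between plates was 76.9%.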

Other observations

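The cell with the most melanocyte markers, on vehicle 1, had 50 counts of Mitf, a gene found in 48 cells, and was the only one with Kit (20 counts). It held 1 count each of Pax3 and Dct and 0 of Tyr and Pmel. Lhx5, a LIM-homeobox factor of the nervous system, was spread thinly over many cells, in 17.8% of cells on average over plates with a median of 1.88 counts. After thinning Lhx5 was found in 5.08% and 5.56% of vehicle and 6.56% and 0% (up to 4.17%) of PRT4165 cells. Hoxa5 had 392 counts, all on PRT4165 1.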
